A study of Mus musculus with 18 samples.

Results

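The data describe how gene expression changed in the hearts of titin-splicing mutant rats between 1 and 20 days after birth. The comparison used every array labelled mutant rat heart at either age, which gave 3 arrays at day 1 and 3 at day 20, or 6 of the 18 arrays of the series. All 31042 probe sets that were not array controls were compared, and they read 14217 genes by symbol. The other arrays were 3 mutant arrays at day 49 and 3 wild-type arrays at each of the 3 ages, and the 6 wild-type arrays of day 1 and day 20 served as the comparison for the mutant's change.

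Mutant animals were homozygous for a mutation first seen in Sprague-Dawley rats and crossed with Fisher 344 inbreds, and the wild types came from the same cross. No drug or diet was given beyond standard chow. Per the series design text each array held the ventricular RNA of a single animal, so nothing was pooled and the 3 arrays of a group stand for 3 animals, although the titles name the tissue as whole heart. The sexes of the animals and the litters they came from are not given in the sources used here. The organism is entered as mouse, against rat in the strains, the descriptions and the array design, and rat is used here. Genotype comes from the descriptions, since the field meant for it does not differ between samples.

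In this rat line the mutation was later traced to a deletion in Rbm20, the gene of a muscle splicing factor that shortens titin and several other muscle transcripts, although the labels do not name the gene. Titin is the giant spring of the sarcomere, and loss of RBM20 keeps it in long, compliant forms. The weeks after birth are when heart muscle cells leave the cell cycle, exchange fetal for adult sarcomere proteins, turn from glucose to fatty acids as their main fuel and build mature calcium release sites. Thyroid hormone, which rises in rodent pups over the same weeks, drives part of that programme.

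Levels are log2 RMA values, the scale on which the arrays were deposited, so a difference of 1 is a 2-fold change, and RMA (robust multi-array analysis) combines the probes of each probe set into a single level. Array medians of the mutant arrays at both ages lay between 5.42 and 5.47, and no pair of the 153 pairs of arrays was identical. Correlations across probe sets were 0.985 to 0.993 among the mutant day-1 arrays, 0.992 to 0.993 among the day-20 arrays and 0.959 to 0.965 between the ages. The ends of the Gapdh transcript were read less evenly at day 1. The level of the 3′ probe set minus that of the 5′ probe set was 1.03 ± 0.37 (SD, n = 3) in the mutant at day 1 and 0.49 ± 0.15 at day 20, against 0.94 ± 0.12 and 0.58 ± 0.29 in the wild type. The gap was above 1 on mutant day-1 replicates 1 and 2 and on wild-type day-1 replicate 2, and counts are given without these 3 arrays where they move by over 1.5 times. The probe set of Rbm20 checks the labels. It read 6.12, 5.50 and 5.51 on the mutant arrays at day 1 and 5.35, 5.45 and 5.67 at day 20, against 10.31 to 10.90 on the 6 wild-type arrays of these ages. All 6 mutant arrays therefore lay below all 6 wild-type arrays, and the Rbm20 level did not pass the test between the mutant's ages (-0.22, adjusted p = 0.470).

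The step from day 1 to day 20 moved many probe sets in both directions. With limma's moderated test and Benjamini-Hochberg adjustment over all probe sets, 8764 of 31042 (28.2%) passed an adjusted p below 0.05, 3839 of them higher (12.4%) and 4925 lower (15.9%) at day 20. Changes of at least 2-fold were called in 2.5% (higher) and 3.02% (lower) of probe sets. Counted by gene, with each gene read by its brightest probe set, 35.6% were called: 1942 of 14217 rose (13.7%) and 3120 fell (21.9%), and the median change of all genes was -0.00. At least 2-fold changes were called in 394 rising and 589 falling genes, at least 4-fold in 74 and 150, and at least 8-fold in 21 and 42. The wild type's step had 8737 called (28.1%): 3907 higher (12.6%) and 4830 lower (15.6%). Its calls of at least 2-fold made up 2.34% (higher) and 3.05% (lower) of probe sets, and by gene 36.2% were called (14.3% higher, 21.8% lower). With only the arrays of each step in the fit the mutant had 6959 calls and the wild type 8772, and without the arrays of uneven Gapdh ends 6332 and 8386.

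The largest rises were those of Rpl3l, the striated-muscle form of a ribosomal protein, and Akr1c15, an aldo-keto reductase. Rpl3l read 4.04, 4.26 and 3.83 at day 1 and 9.32, 9.77 and 9.01 at day 20, a rise of 5.32 ± 0.17 (SE) or 40.0-fold (adjusted p = 4.88e-13). Akr1c15 read 4.64, 4.73 and 4.82 and then 9.98, 10.04 and 9.86, a rise of 5.23 ± 0.14. The day-1 levels of both lie near those of dim probe sets, where RMA compresses differences. Acss1, a mitochondrial acetyl-CoA synthetase, rose by 4.75, Asph, whose muscle products include junctin and junctate of the calcium store, by 4.21, the tubulin Tuba8 by 4.06 and Ckmt2, the mitochondrial creatine kinase of muscle, by 4.02. Alox15, a lipoxygenase, rose by 4.50 from 6.13, 5.67 and 7.54 to 11.91, 10.18 and 10.75, and its mean on the mutant arrays at day 49 was 6.90. Rbfox1, a splicing regulator of muscle and neurons, rose by 4.57 on a dimmer probe set and by 3.35 on its brightest one, and the guanine deaminase Gda rose by 3.78 and 3.37 on its pair of probe sets. A probe set of 2310002L09Rikl, described with the differences from the wild type, completes the 10 largest rises. Only called probe sets whose levels of day 1 and day 20 did not overlap could enter these 10 rises or the 10 largest falls.

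The largest falls belonged to Slc16a12, a carrier of the monocarboxylate transporter family, and Cdhr1, a cadherin-related protein. Slc16a12 read 9.84, 10.03 and 10.15 at day 1 and 4.97, 4.89 and 5.35 at day 20, a fall by 4.94 ± 0.14 or 30.6-fold. Cdhr1 went from 9.11, 8.94 and 9.26 to 3.95, 4.52 and 4.19, a fall by 4.88. The kinesin Kif26b fell by 4.28 on one probe set and by 2.45 on its brightest one, the cytoskeletal Septin6 fell by 3.87 and Bex4 by 3.72. The remaining members of the 10 largest falls were cell cycle genes: Ect2, Cks2, Ccna2, Plk4 and Prc1.

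**Figure D1:**
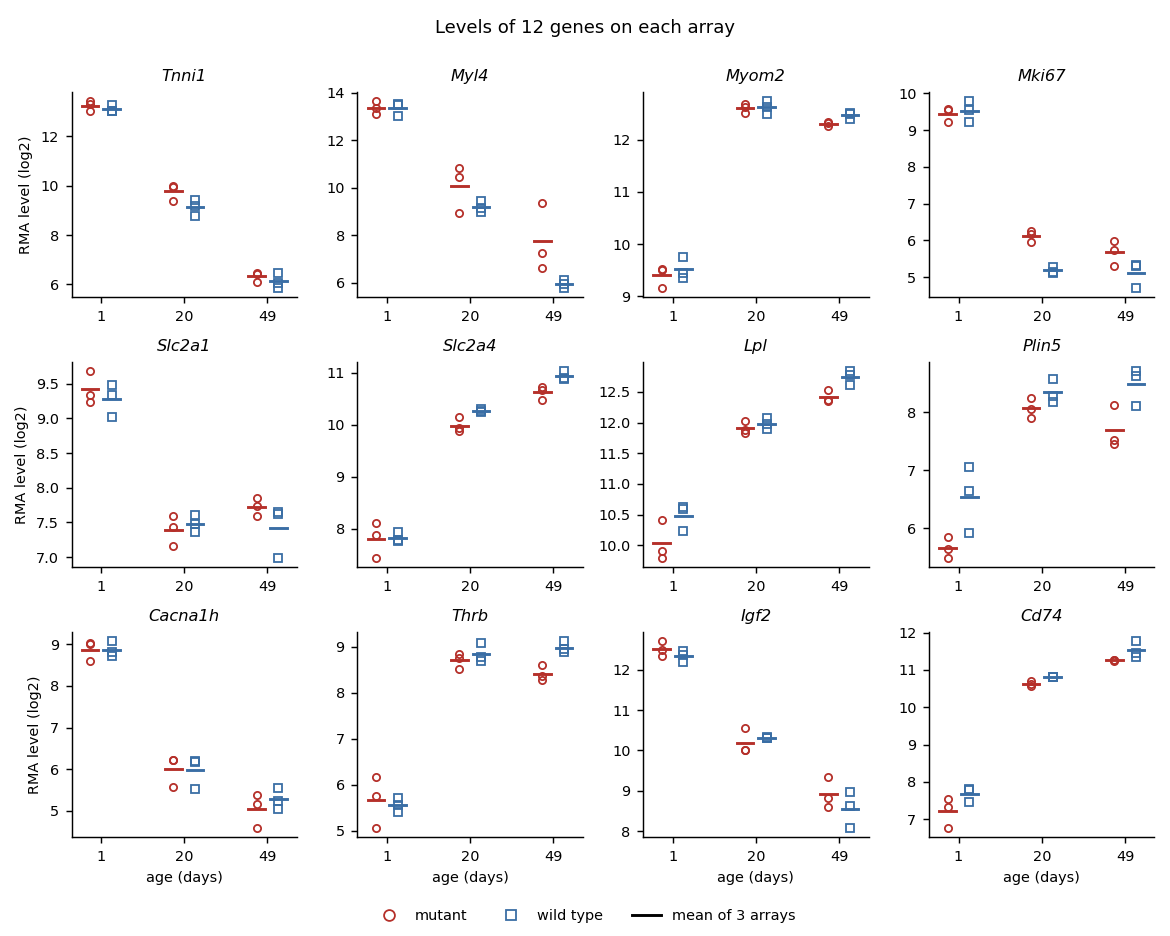
Log2 RMA level of 12 genes on each array (vertical axis) by age in days (horizontal axis), with mutant arrays as red circles, wild-type arrays as blue squares and lines at the mean of 3 arrays. In the mutant Tnni1 stood at 13.42, 13.30 and 13.01 at day 1 and at 9.96, 9.39 and 9.98 at day 20. In each panel the mutant levels of day 1 and day 20 did not overlap, and the share of all genes without overlap is not given here.

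Genes of mitosis fell as a block. Of the 45 measured genes of the list for mitosis and G2/M, 45 fell and 43 fell at least 2-fold, where 21.9% of all genes fell. The list's median change was -2.78, against -0.00 over all genes. All 45 also fell when the 3 arrays of uneven Gapdh ends were left out. Ect2, the exchange factor that starts the cleavage furrow, read 9.05, 9.24 and 8.81 at day 1 and 4.53, 4.37 and 5.36 at day 20, a fall by 4.28 ± 0.21 (adjusted p = 5.06e-11). Ccna2, the cyclin of S phase and mitotic entry, went from 7.69, 8.08 and 7.74 to 3.85, 4.02 and 4.53. Mki67, the proliferation antigen that coats mitotic chromosomes, went from 9.22, 9.55 and 9.57 to 6.17, 5.95 and 6.25, a fall by 3.32 ± 0.19. Top2a, the topoisomerase that untangles sister chromatids, fell by 3.40, and Prc1, which bundles the spindle midzone, by 3.59. For each of these genes every day-20 array lay below every day-1 array. The share of all genes without overlap is not given here, so the separation does not set these genes apart. For Ect2, Ccna2 and Prc1 it was a condition of being listed among the 10 largest falls. The shallowest falls of the list were those of Mybl2 (-0.80), Cks1b (-0.89) and Ccnf (-1.0).

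The promoters of late cell cycle genes are known for a pair of short elements, the CHR (cell cycle genes homology region) and the CCAAT box, through which the DREAM, MYB-MuvB and NF-Y complexes act. Rat promoter sequence was not used here, and the mouse promoters of RefSeq (GRCm38.p6) were searched in its place, over the 250 bases before each start, on both strands, for CCAAT and for the CHR letters TTTGAA or TTTAAA. Of the 45 genes, 38 matched by symbol, with 40 promoters. Both elements stood in 17 of the 40 (42.5%), against 8.78% of 32851 mouse promoters. CCAAT stood in 77.5%, against 33.8%, and a CHR in 47.5%, against 25.2%. The 3 genes of the list with the deepest falls whose mouse promoter held both elements within 150 bases of the start are shown, because they let a reader see the elements in genes that fell together. Lower case marks the sequence and capitals mark CCAAT, a CHR or the reverse complement of either, which do not overlap here. The stretches lie at chr3:27153879-27154028 on the minus strand (Ect2), chr7:80294326-80294475 on the plus strand (Prc1) and chr11:99024190-99024339 on the minus strand (Top2a), and run 5′ to 3′ up to the base before the start.
Ect2: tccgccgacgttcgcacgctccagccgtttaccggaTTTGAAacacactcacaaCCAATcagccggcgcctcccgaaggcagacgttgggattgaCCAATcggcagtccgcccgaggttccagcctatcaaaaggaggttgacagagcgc
Prc1: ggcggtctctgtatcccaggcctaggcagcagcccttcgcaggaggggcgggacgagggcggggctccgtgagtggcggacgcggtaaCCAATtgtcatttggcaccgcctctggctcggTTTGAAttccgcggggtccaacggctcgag
Top2a: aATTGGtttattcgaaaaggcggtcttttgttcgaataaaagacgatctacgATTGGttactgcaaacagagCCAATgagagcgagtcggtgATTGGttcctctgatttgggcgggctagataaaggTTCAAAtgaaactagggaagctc
A match says only that these letters stand in the mouse window. These shares carry no test, and binding was not measured.

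Genes of DNA replication and the G1/S step fell less deeply. Of 34 measured, 26 fell, 0 rose and 23 fell at least 2-fold, where 21.9% of all genes fell and 13.7% rose. The list's median change was -1.38. Mcm6, a subunit of the replicative helicase, went from 8.61, 8.72 and 9.53 to 6.37, 6.77 and 6.80, a fall by 2.31 ± 0.18 (adjusted p = 2.31e-08). Uhrf1, which carries DNA methylation through replication, fell by 2.16 and the cyclin Ccne1 by 1.65. The D-type cyclins differed among themselves: Ccnd3 fell by 0.49, Ccnd1 changed by 0.13 without passing the test, and Ccnd2 read 9.88, 9.98 and 10.87 at day 1 and 11.003, 10.99 and 10.75 at day 20, with overlapping groups (0.67, adjusted p = 0.0825). Without mutant day-1 replicate 3, 1 member of the list rose. The E2F letters TTCCCGC or TTGGCGC stood in 9 of the 38 mouse promoters of 29 matched genes (23.7%), against 5.62% of all.

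Among inhibitors of the cell cycle 3 of 21 rose and 5 fell, shares near those of all genes (13.7% and 21.9%), with a median of -0.14. Cdkn1c, the imprinted CDK inhibitor of fetal tissue, read 9.73, 9.83 and 9.05 and then 6.84, 6.59 and 7.01, a fall by 2.72 ± 0.25. Cdkn2d fell by 1.76 and Rbl1, a pocket protein that is itself cell cycle regulated, by 1.86. Tob2, Gadd45a and Ccng1 rose by 0.69, 0.68 and 0.36, and under quantile normalization 5 members rose. Cdkn1a, the p21 inhibitor, did not pass the test (-0.32, adjusted p = 0.412).

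The changes of cell cycle genes can be set beside those of the wild type, since the 2 steps share no array. All 45 mitosis genes also fell in the wild type, where the median was -2.98, and 29 of 34 replication genes fell, with a median of -1.81. The mutant's change lay above the wild type's in 34 of the 34 replication genes and in 38 of the 45 mitosis genes, against 6946 of 14217 genes in all. The median difference was 0.32 for replication and 0.27 for mitosis. None of these differences was called in either list, and 7 and 9 of them had an unadjusted p below 0.05, against 565 of 14217 genes in all. At day 1 the mutant's level was below the wild type's in 33 of 34 replication genes (median -0.20) and above it in 37 of 45 mitosis genes (median 0.11). At day 20 it was above it in 27 and in 43 of them (medians 0.15 and 0.36). Mki67 had the widest gap of the pair of lists: it fell by 4.34 in the wild type, from 9.56, 9.21 and 9.79 to 5.12, 5.28 and 5.15, and the difference of 1.02 ± 0.26 did not pass the test (adjusted p = 0.678). Members of these lists share arrays and are transcribed together, so their number is not a number of replicates. Of the mutant day-1 arrays, replicates 1 and 2 had uneven Gapdh ends. The counts of genes above or below the wild type were not redone without such arrays, and the part of array quality was not tested.

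**Figure D2:**
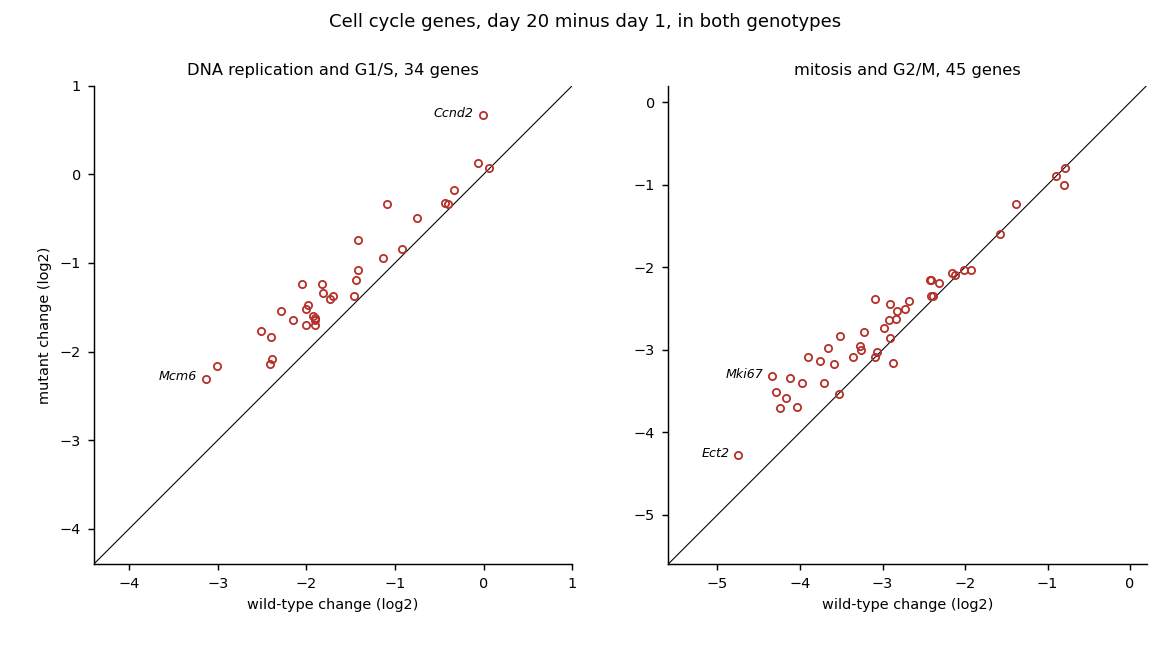
Mutant change against wild-type change from day 1 to day 20, in log2, for the 34 genes of the replication list (left) and the 45 genes of the mitosis list (right), 1 circle per gene, with a line of equal change. All 34 replication genes and 38 of the 45 mitosis genes lie above the line, and 0 of these differences passed the test.

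Ribosome biogenesis fell beside the cell cycle. Of 25 measured genes, 20 fell and 0 rose, with a median of -0.53, where 21.9% of all genes fell and 13.7% rose. Nop58, a core protein of the particles that methylate ribosomal RNA, went from 9.73, 9.86 and 9.96 to 8.70, 8.70 and 8.69, a fall by 1.16 ± 0.11. Gar1, a pseudouridylation factor, fell by 1.26, and the transcription factors Mycn and Myc by 1.31 and 0.85.

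In the sarcomere fetal forms fell and adult forms rose. Of 16 slow or fetal forms measured, 9 fell, 0 rose and the median was -1.27. Of 17 adult sarcomere proteins 10 rose, 0 fell and the median was 0.43. Among all genes 21.9% fell and 13.7% rose. Without the arrays of uneven Gapdh ends 1 slow or fetal form rose. Tnni1, the slow skeletal troponin I that the fetal heart uses, read 13.42, 13.30 and 13.01 at day 1 and 9.96, 9.39 and 9.98 at day 20, a fall by 3.47 ± 0.19 or 11.05-fold (adjusted p = 1.82e-10), and its mean was 6.33 at day 49. Tnni3, the adult cardiac troponin I, rose from 13.34, 13.35 and 13.31 to 13.72, 13.76 and 13.80, by 0.43 ± 0.07. The wild type had changes of -3.98 and 0.47 in this pair.

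Among the other sarcomere genes, Myom2, an M-band protein that crosslinks thick filaments, rose from 9.16, 9.53 and 9.51 to 12.64, 12.69 and 12.51, by 3.21 ± 0.11 (adjusted p = 1.25e-12). Cmya5 (myospryn) rose by 2.63, Myh14 by 2.09 and the kinase Tnni3k by 1.82. Cnn1 and Acta2, smooth muscle forms present in fetal heart muscle, fell by 3.19 and 1.33, and Acta2 was not called without the arrays of uneven Gapdh ends (-0.68, adjusted p = 0.310). Myh6, the fast myosin heavy chain of the adult rodent ventricle, read 13.11, 13.46 and 13.64 and then 13.84, 13.88 and 13.77, a rise by 0.43 ± 0.12 (adjusted p = 0.0109). That call was lost without mutant day-1 replicate 1 (0.28, adjusted p = 0.0723) and without the arrays of uneven Gapdh ends (0.20, adjusted p = 0.274). A dimmer Myh6 probe set rose by 3.26 ± 0.68 and was called (adjusted p = 0.00123). Myh7, the slow form, read 14.06, 14.05 and 13.92 and then 13.54, 13.49 and 13.61, and although its groups did not overlap the change of -0.46 was not called (adjusted p = 0.0890). It was called when only the 6 arrays of the step entered the fit (adjusted p = 0.00952). A dimmer Myh7 probe set changed by 1.48 ± 0.69, the other way, and was not called (adjusted p = 0.124). Acta1, the skeletal actin, changed by 0.05 and Ttn by 0.07, neither called, and the Ttn probe set does not tell its splice forms apart.

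Myl4, an atrial and fetal myosin light chain, fell by 3.29 ± 0.50, from 13.12, 13.35 and 13.65 to 10.85, 8.94 and 10.45. It is one of 14 atrial and conduction markers. The summed linear level of the other 13 lay between 13.83 and 14.66 in log2 on the day-1 arrays and between 13.06 and 13.58 on the day-20 arrays. Nppa, which is among the 13, makes up much of that sum. It alone read 13.19, 13.88 and 13.95 and then 12.66, 12.72 and 13.23, a change that was not called. The day-20 array with the lowest Myl4 also had the lowest Sln, an atrial regulator of the calcium pump, which read 6.30, 10.03 and 10.09 at day 1 and 8.86, 5.46 and 8.10 at day 20. Mybphl, another atrial transcript, was called lower (-1.94) although its groups overlapped, with 6.07, 8.39 and 8.17 and then 6.08, 5.24 and 5.48. Of the 14 markers 4 fell and 1 rose, where 21.9% of all genes fell and 13.7% rose, and without mutant day-1 replicate 1 the falls numbered 7. None rose when any other mutant array of these ages was left out. Whether atrial tissue in the extracts took part in these changes was not tested. In whole-tissue RNA, fewer cells of a type and less RNA per cell cannot be told apart, here or in any list that follows.

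Fuel genes moved toward fatty acids. Of 39 genes of fatty acid uptake and oxidation, 32 rose, 2 fell and 16 rose at least 2-fold, with a median of 0.92, where 13.7% of all genes rose. Lpl, the lipase that frees fatty acids from lipoproteins, read 9.80, 10.41 and 9.91 at day 1 and 11.83, 12.03 and 11.87 at day 20, a rise of 1.87 ± 0.14 or 3.66-fold (adjusted p = 1.05e-08). Cd36, the fatty acid uptake receptor, rose by 1.44, Cpt2, which rebuilds acyl-CoA inside the mitochondrion, by 1.45, and Acadm, the medium-chain acyl-CoA dehydrogenase, by 1.58. Plin5, the lipid droplet protein of oxidative tissue, went from 5.85, 5.50 and 5.64 to 7.90, 8.25 and 8.06, a rise of 2.41 ± 0.24. The members that fell were Acot1 (-1.77) and the ketone enzyme Bdh1 (-0.48), and 1 fell without mutant day-20 replicate 3 or without the arrays of uneven Gapdh ends. Cpt1a and Cpt1b, the liver and muscle forms of the entry enzyme, changed by -0.36 and 0.40 without passing the test, as did Pdk4 (0.73, adjusted p = 0.168), whose day-20 arrays read 9.59, 11.07 and 10.22. In the wild type 28 of the 39 rose, with a median of 0.82.

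Glucose genes split. Of 34 genes of glycolysis and glucose uptake 11 rose and 11 fell, against 13.7% and 21.9% of all genes, with a median of 0.00. Several isoforms of one step went opposite ways. Slc2a1, the glucose carrier of fetal heart, read 9.24, 9.68 and 9.33 and then 7.59, 7.16 and 7.44, a fall by 2.02 ± 0.17. Slc2a4, the insulin-regulated carrier of adult muscle, went from 8.10, 7.87 and 7.44 to 9.88, 10.14 and 9.93, a rise of 2.18 ± 0.13. Among paired isoforms, Pgam2, Eno3 and Pfkm, the muscle forms, rose by 2.69, 0.90 and 0.97, while Pgam1, Eno1 and Eno2, and Pfkl and Pfkp fell by 0.75, 0.73, 2.10, 1.22 and 1.27. Slc16a3, the lactate exporter of glycolytic cells, fell by 2.78 and Hk1 by 0.50, while Hk2 did not pass the test (0.44, adjusted p = 0.0545). Other isoform sets did not divide in that way: Aldoc fell by 1.95 while Aldoa (0.12) was not called, and Ldhb rose by 0.29 while Ldha (-0.08) was not called. These isoforms were chosen after their values were seen.

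In the list of pyruvate entry and the tricarboxylic acid cycle, 22 of 27 genes rose and 0 fell, with a median of 0.46. Got1, of the malate-aspartate shuttle, rose by 1.62, the pyruvate dehydrogenase kinases Pdk2 and Pdk1 by 1.18 and 1.17 and Ogdh, a subunit of the 2-oxoglutarate dehydrogenase complex, by 1.14. Of 21 cytochrome oxidase genes 10 rose and 3 fell, against 13.7% and 21.9% of all genes. Cox7a1, the muscle form of its subunit, rose by 1.22 from 6.78, 6.74 and 6.25 to 7.66, 7.98 and 7.79, and Cox8b and Cox6a2, also muscle forms, by 0.67 and 0.43. Cox8a and Cox6a1, the widely expressed counterparts of the latter pair, fell by 0.61 and 0.76. The deepest fall of the list was that of Cox6b2 (-1.54), whose counterpart Cox6b1 changed 1.01-fold. These isoforms were picked with their values known. Energy transfer genes rose in 9 of 15 and fell in 1, and in 5 and 2 without the arrays of uneven Gapdh ends, with 2 falling also without mutant day-1 replicate 1. Ckmt2 went from 8.14, 8.32 and 7.88 to 12.13, 12.40 and 11.86, a 16.3-fold rise, and the mitochondrial kinase Ak4 rose by 3.22. Ckm, the muscle creatine kinase, rose by 0.50 and Mb, the oxygen-storing myoglobin, by 0.55, and Ckb, the brain form, fell by 0.97.

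Of 26 regulators of oxidative metabolism 9 rose and 2 fell, where 13.7% of all genes rose and 21.9% fell. Ppargc1a, the coactivator that drives mitochondrial genes, rose from 8.85, 9.03 and 9.15 to 9.80, 9.89 and 9.98, by 0.88 ± 0.12. Rxrg, a retinoid X receptor, rose by 2.52, Perm1, a muscle regulator induced by PGC-1 and ERR factors, by 1.58 and Klf15 by 1.32. Esrrb and the nuclear respiratory factor Nrf1 fell by 0.61 and 0.50, calls that were both lost without the arrays of uneven Gapdh ends, where 0 members fell, and 1 member fell without mutant day-20 replicate 1. Ppara (0.35) and Esrra (0.25), receptors of fatty acid oxidation genes, did not pass the test. The letters AAGGTCA, the core site of ERR receptors, stood in 2.90% of the mouse promoters of 55 matched genes of the oxidation and tricarboxylic acid lists, against 4.08% of all.

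**Figure D3:**
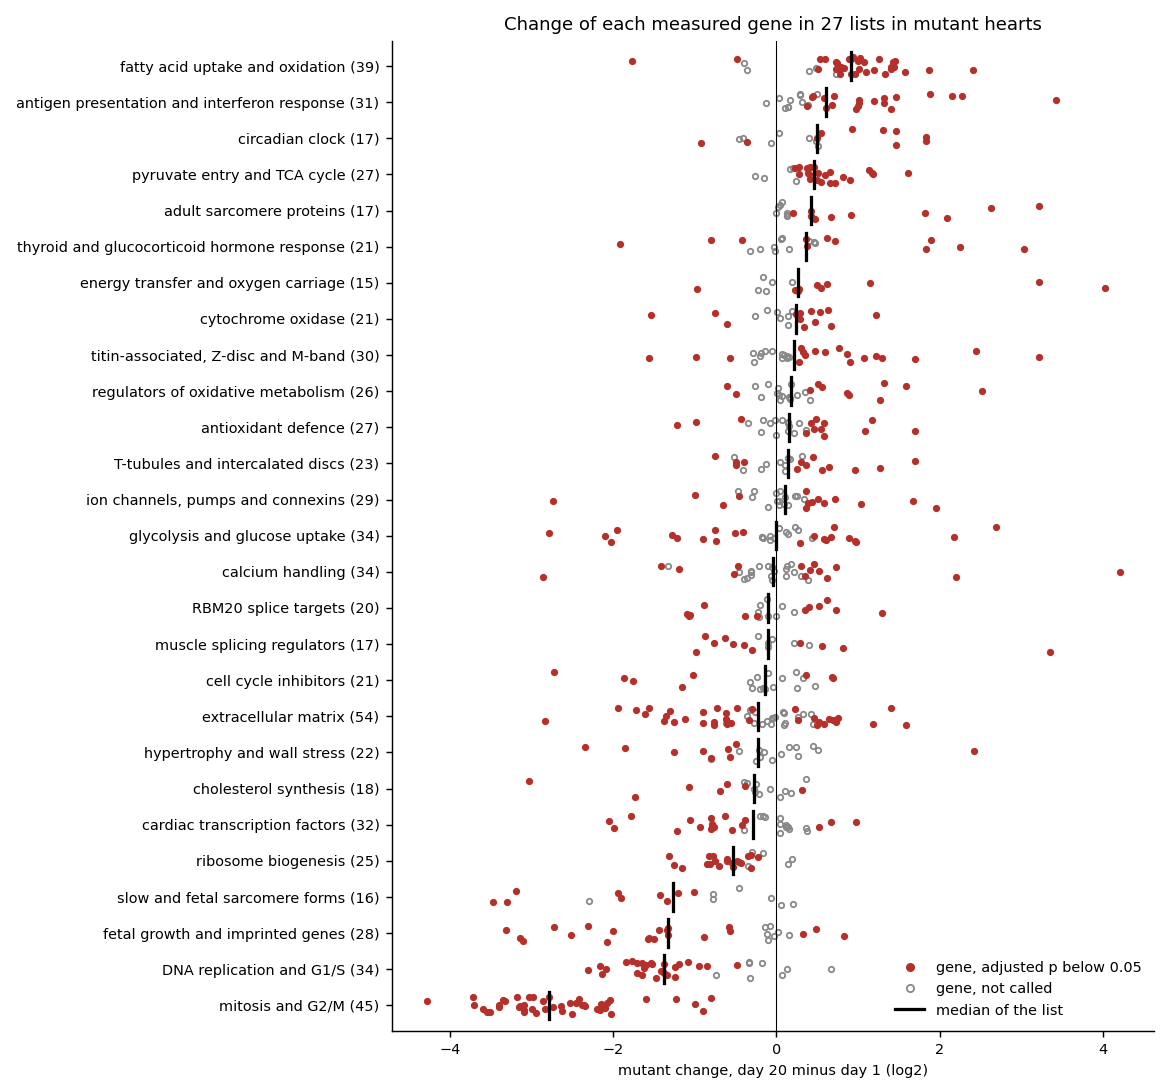
Mutant change from day 1 to day 20 in log2 (horizontal axis) for each measured gene of 27 pathway lists (vertical axis, number of genes in brackets). Filled red circles are called genes, open grey circles are not called and black lines are medians, which run from -2.78 for mitosis to 0.92 for fatty acid oxidation.

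Of 34 calcium handling genes 9 rose and 5 fell, where 13.7% of all genes rose and 21.9% fell, with 8 falling without mutant day-1 replicate 1, and a median of -0.04. Asph went from 5.76, 5.46 and 5.46 to 9.79, 9.70 and 9.82 on its brightest probe set, an 18.5-fold rise, while its other 3 probe sets changed by 3.14, 0.93 and -0.25. Hrc, a calcium-binding protein of the sarcoplasmic reticulum, rose from 9.02, 9.32 and 9.01 to 11.34, 11.31 and 11.30, by 2.20 ± 0.12. Ryr2, the calcium release channel, rose by 0.73, Pln (phospholamban) by 0.35 and Atp2a2, the calcium pump, by 0.30 ± 0.07, a call lost under quantile normalization (0.17, adjusted p = 0.106). Cacna1h and Cacna1g, the T-type calcium channels of fetal myocytes, fell by 2.86 ± 0.22 and 1.19, and Cacna1h read 8.99, 9.02 and 8.59 and then 6.22, 5.57 and 6.23. Slc8a1, the sodium-calcium exchanger, went from 12.07, 12.002 and 12.01 to 10.53, 10.69 and 10.63, a fall by 1.41 ± 0.08 (adjusted p = 4.38e-10). The spread within each age was small beside the change.

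T-tubule and intercalated disc genes rose in 9 of 23 and fell in 4, against 13.7% and 21.9% of all genes. Of these counts, 5 rose without mutant day-20 replicate 2, and 5 rose and 2 fell without the arrays of uneven Gapdh ends. The titin cap Tcap rose from 9.68, 10.10 and 10.11 to 11.55, 11.66 and 11.76, by 1.69 ± 0.14, and by 2.36 in the wild type (difference -0.66, adjusted p = 0.924). Ank2, an ankyrin that anchors ion transporters, rose by 1.28 on its brightest probe set, while the others (0.11 and 0.13) were not called, and Jph1 and Jph2, the junctophilins that tether T-tubules to the calcium store, rose by 0.96 and 0.65. Popdc2, a membrane protein that binds cyclic AMP, fell by 0.75.

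Of 29 ion channel, pump and connexin genes, 10 rose and 4 fell, and 6 rose without the arrays of uneven Gapdh ends. Over all genes 13.7% rose and 21.9% fell. Kcna5 and Kcnip2, components of the potassium currents that shorten the rodent action potential, rose by 1.96 ± 0.34 and 1.68 ± 0.22. Kcnip2 read 10.41, 10.19 and 9.05 at day 1 and 11.46, 11.63 and 11.58 at day 20, with the day-1 arrays spread over more than 1 unit. Kcnj8, a subunit of ATP-sensitive potassium channels, rose by 1.04. Gja5, the connexin of atrium and conduction system, went from 9.47, 9.64 and 10.004 to 7.03, 6.87 and 7.005, a fall by 2.74 ± 0.17, while Gja1, the main ventricular connexin, changed by 0.01 and was not called.

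Of 54 matrix genes 22 fell and 13 rose, with a median of -0.22. Falls also outnumbered rises over all genes, 3120 (21.9%) against 1942 (13.7%). Without the arrays of uneven Gapdh ends 13 fell and 7 rose. Tnc, a matricellular protein of developing tissue, fell from 6.56, 7.35 and 8.62 to 4.82, 4.57 and 4.64, by 2.83 ± 0.34. Elastin (Eln) fell by 1.94, Fbn2, the fetal fibrillin, by 1.72 and fibronectin (Fn1) by 1.31. Col1a1, a chain of the main fibrillar collagen, fell by 0.76, while Col3a1 changed by 0.10 and was not called. Mfap5, Col15a1 and the proteoglycan Dcn rose by 1.58, 1.41 and 1.19. Dcn read 10.88, 10.98 and 11.06 and then 12.17, 12.07 and 12.24.

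The list of fetal growth and imprinted genes fell in 18 of 28 and rose in 3, or 1 without the arrays of uneven Gapdh ends, with a median of -1.33. Igf2, the fetal growth factor, went from 12.48, 12.70 and 12.33 to 10.02, 10.01 and 10.56, a fall by 2.31 ± 0.20, with a mean of 8.92 at day 49. H19, the imprinted RNA beside it, fell by 3.31 ± 0.19 from 12.47, 12.53 and 11.90 to 8.89, 8.71 and 9.37. Mest and Plagl1, also imprinted, fell by 3.14 and 3.10 and Igf2bp3, which binds Igf2 RNA, by 2.51. Igf1, the postnatal growth factor, rose by 0.48. Of 32 cardiac transcription factors 15 fell and 3 rose, against 21.9% and 13.7% of all genes. Hey2 and Irx4, ventricular identity factors, fell by 2.05 and 1.99, Sox4 by 1.78 and Gata4 by 0.79, whereas Hey1 rose by 0.98.

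Hormone and clock genes were among the risers, where 13.7% of all genes rose and 21.9% fell. Of 21 genes of the thyroid and glucocorticoid list 8 rose and 3 fell, or 1 without the arrays of uneven Gapdh ends. Thrb, the beta thyroid hormone receptor, went from 5.76, 6.16 and 5.06 to 8.52, 8.85 and 8.74, a rise of 3.04 ± 0.20 or 8.22-fold (adjusted p = 1.63e-09), and Thra, the alpha receptor, fell by 0.42. Klf9, a target of both hormones, rose by 2.25, Hsd11b1, which regenerates glucocorticoid, by 1.90 and the mineralocorticoid receptor Nr3c2 by 1.84. Fkbp5, a glucocorticoid target, was called lower (-1.91), from 9.69, 9.81 and 8.23 to 6.76, 7.38 and 7.86, and was not called without the arrays of uneven Gapdh ends (-0.89, adjusted p = 0.237). Of 17 clock genes 8 rose and 2 fell, or 5 and 1 without those arrays, and Nr1d1 and Nr1d2, the REV-ERB repressors, each rose by 1.83. Falls also numbered 1 without mutant day-1 replicate 2 or without mutant day-20 replicate 2 or 3. The labels name no hour of tissue collection, so age and time of day cannot be told apart for these genes.

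Antigen presentation and interferon genes rose in 20 of 31 and fell in 0, with a median of 0.61, where 13.7% of all genes rose and 21.9% fell. Cd74, the chaperone of class II antigen presentation, read 7.33, 7.55 and 6.77 at day 1 and 10.58, 10.61 and 10.71 at day 20, a rise of 3.42 ± 0.15 or 10.7-fold (adjusted p = 1.80e-11), and its mean was 11.26 at day 49. RT1-Da, a class II chain, rose by 2.27, the interferon target Rsad2 by 2.15 and the guanylate-binding protein Gbp2 by 1.88. Macrophage and leukocyte markers rose in 5 of 20 and fell in 0, with summed levels from 10.80 to 11.05 at day 1 and from 11.12 to 11.32 at day 20. Their risers numbered 2 without mutant day-1 replicate 1, 3 without mutant day-1 replicate 3, 2 without mutant day-20 replicate 3 and 2 without the arrays of uneven Gapdh ends. Their part in the rise of class II genes was not tested.

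Counts for the other cell type markers stand against 13.7% rising and 21.9% falling among all genes. Cardiomyocyte markers had summed levels of 16.25 to 16.27 at day 1 and 16.40 to 16.51 at day 20, with 4 of 11 rising and 1 falling, or 0 falling without the arrays of uneven Gapdh ends. Fibroblast markers rose in 10 of 14 and fell in 3, or 1 without the arrays of uneven Gapdh ends, with Dpt and Mfap5 higher by 1.41 and 1.58. Epicardial markers fell in 7 of 10, led by Sfrp1 (-3.08), and rose in 1, with 4 falls when dim probe sets were left out. Endothelial markers rose in 4 of 16, and Pecam1 (-0.05) and Kdr (0.08) were not called. Smooth muscle and pericyte markers split 5 to 5. Of the 15 skeletal muscle markers Ckm, which the heart also uses, rose, a count that became 2 without mutant day-1 replicate 3 or without the arrays of uneven Gapdh ends, and the defining genes Myod1, Myog and Tnni2 had day-20 means of 3.51, 5.36 and 4.84. Adipocyte markers rose in 3 of 10, with Plin4 higher by 3.54, while Adipoq and Lep, which define the type, had day-20 means of 4.35 and 3.99. The parts these cell types had in the changes were not tested.

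RBM20 splice targets, a list drawn from general knowledge that rests partly on work with this rat line, had 6 of 20 rising and 6 falling, with a median of -0.10, and 3 rising without the arrays of uneven Gapdh ends. These counts are of whole probe sets, and most splice forms are not told apart by them. Over all genes 13.7% rose and 21.9% fell. Pdlim5, a Z-disc adaptor whose long and short forms are known to exchange after birth, had probe sets that went opposite ways: the brightest rose by 1.29 and another fell by 2.60, from a mean of 9.65 to 7.04. In the wild type that pair changed by 1.18 and -1.87. Enah, an actin regulator, went from 9.83, 9.94 and 10.21 to 8.87, 9.08 and 8.74, a fall by 1.10, against 1.67 in the wild type (difference 0.57, adjusted p = 0.952). Of 17 splicing regulators 4 rose and 7 fell, or 4 without the arrays of uneven Gapdh ends. Rbfox1 and Mbnl1, which drive adult splice choices, rose by 3.35 and 0.81 and Celf1, Ptbp1 and Ptbp2, of fetal and neural choices, fell by 0.53, 0.76 and 0.87.

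Titin-associated, Z-disc and M-band genes rose in 15 of 30 and fell in 3, or 5 under limma's trend option, where 13.7% of all genes rose and 21.9% fell. Obsl1, an obscurin-like linker, fell by 1.56. Ankrd23, a titin-binding protein of the ankyrin repeat family, rose from 5.19, 5.58 and 4.76 to 7.47, 7.93 and 7.47, by 2.45 ± 0.24, and by 1.16 in the wild type (difference 1.29 ± 0.34, adjusted p = 0.684). At day 20 it stood 1.67 above the wild type (adjusted p = 0.00283). Of 22 genes of hypertrophy and wall stress 8 fell and 1 rose in the mutant, and 11 and 1 in the wild type, with medians of -0.23 and -0.43. Without the arrays of uneven Gapdh ends 4 fell in the mutant, and 2 rose without mutant day-1 replicate 1 or mutant day-20 replicate 3. Nppa and Nppb, the natriuretic peptides, fell in the wild type by 1.24 and 0.92 and were not called in the mutant (-0.81, adjusted p = 0.0813, and -0.20, adjusted p = 0.583). Nppa read 13.19, 13.88 and 13.95 and then 12.66, 12.72 and 13.23, and its fall was called with only the 6 arrays of the step in the fit (adjusted p = 0.0305), with the replicate number as a block (adjusted p = 0.0229) and without mutant day-1 replicate 1 (-1.05, adjusted p = 0.0386). Ccn2, a matricellular growth factor, fell in the wild type by 1.67 and read 10.52, 10.51 and 10.55 and then 10.58, 11.72 and 10.65 in the mutant (difference 2.13 ± 0.44, adjusted p = 0.294). The differences between genotypes in these 3 genes did not pass the test.

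Set against each other, the steps of the 2 genotypes were close over the array as a whole. The change of a probe set in the mutant correlated with its change in the wild type at r = 0.923 over 31042 probe sets and 0.942 over 14217 genes, a correlation across genes, which are not independent replicates. Of the 1942 genes that rose in the mutant, 1516 also rose in the wild type, which is 78.1% of the mutant's and 74.4% of the wild type's risers, and 2538 fell in both, 81.3% and 81.8%. Genes that rose in the mutant and fell in the wild type numbered 2, and 0 did the reverse.

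A test of the difference between the steps called 6 of 31042 probe sets (0.0193%), all with a higher change in the mutant, and 0 in the other direction. An unadjusted p below 0.05 was found for 1194 of the 31042, a share that is itself below 0.05. By gene, 3 were called (0.0211%). Leaving out single arrays gave 1 to 20 calls, and leaving out the arrays of uneven Gapdh ends gave 28, of which 11 were higher and 17 lower in the mutant. Kcnq1, the pore of the slow delayed rectifier potassium channel, read 8.58, 8.30 and 8.60 and then 8.84, 9.02 and 8.91 in the mutant, and 8.42, 8.48 and 8.45 and then 8.07, 8.04 and 7.96 in the wild type. It rose by 0.43 in the mutant, a call lost without the arrays of uneven Gapdh ends (0.33, adjusted p = 0.0854), and fell by 0.43 in the wild type, a difference of 0.86 ± 0.14 (adjusted p = 0.0323) that stayed called in 2 of 12 fits without a single array. Msrb2, a mitochondrial methionine sulfoxide reductase, rose by 0.69 and fell by 0.50, a difference of 1.19 ± 0.18 (adjusted p = 0.0206), called in 6 of the 12. In both genes the mutant and wild-type arrays overlapped at day 1 and were apart at day 20.

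Dguok, the mitochondrial deoxyguanosine kinase, rose from 4.0, 3.89 and 3.78 to 5.57, 5.05 and 4.91 in the mutant and fell from 5.68, 5.25 and 5.44 to 3.96, 3.89 and 4.74 in the wild type, a difference of 2.55 ± 0.38 (adjusted p = 0.0206). This is its dimmer probe set, with levels near or below the overall median of 5.45, where RMA compresses differences. The brightest probe set of Dguok rose in both genotypes, by 1.40 and 0.63, and its difference of 0.77 was not called. Of the 3 probe sets of 2310002L09Rikl, an uncharacterized transcript, 2 gave called differences, of 2.88 ± 0.22 and 1.51 ± 0.22, while the third went the other way without passing the test (-0.94, adjusted p = 0.567), its rises being 3.04 (mutant) and 3.98 (wild type). On the first of them the mutant went from 6.36, 6.35 and 5.84 to 9.20, 9.18 and 9.17, whereas the wild type read 5.64, 5.58 and 5.28 and then 5.82, 5.30 and 5.72. On the second both genotypes rose, by 3.90 and 2.39. A probe set with no gene listed, dim at day 1 in the mutant (mean 4.76), rose there by 1.36. It changed by -0.15 in the wild type, a difference of 1.51 ± 0.21 (adjusted p = 0.0166).

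**Figure D4:**
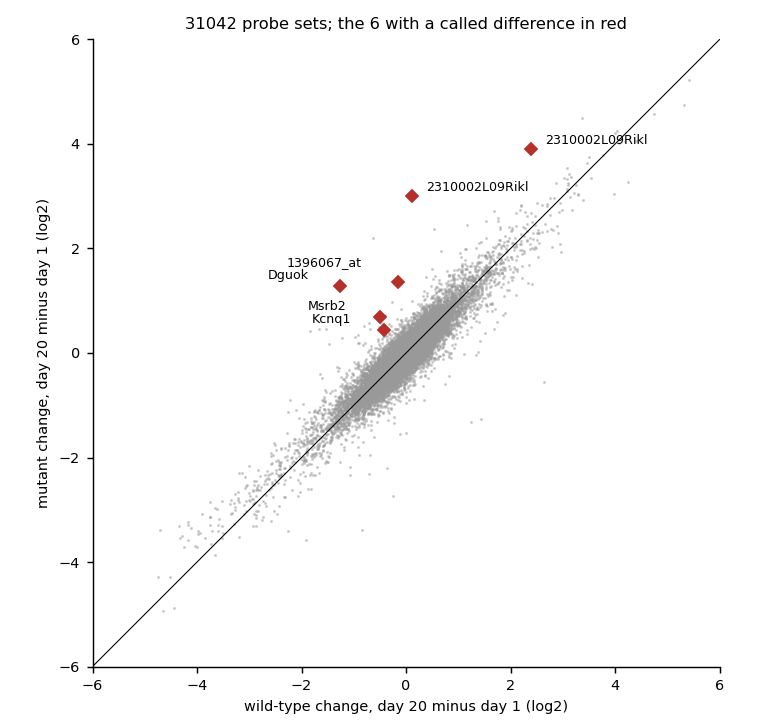
Mutant change (vertical) against wild-type change (horizontal) from day 1 to day 20 in log2 for 31042 probe sets (grey) with a line of equal change, and the 6 probe sets with a called difference as red diamonds. All 6 lie above the line, and the correlation over all probe sets is 0.923.

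**Figure D5:**
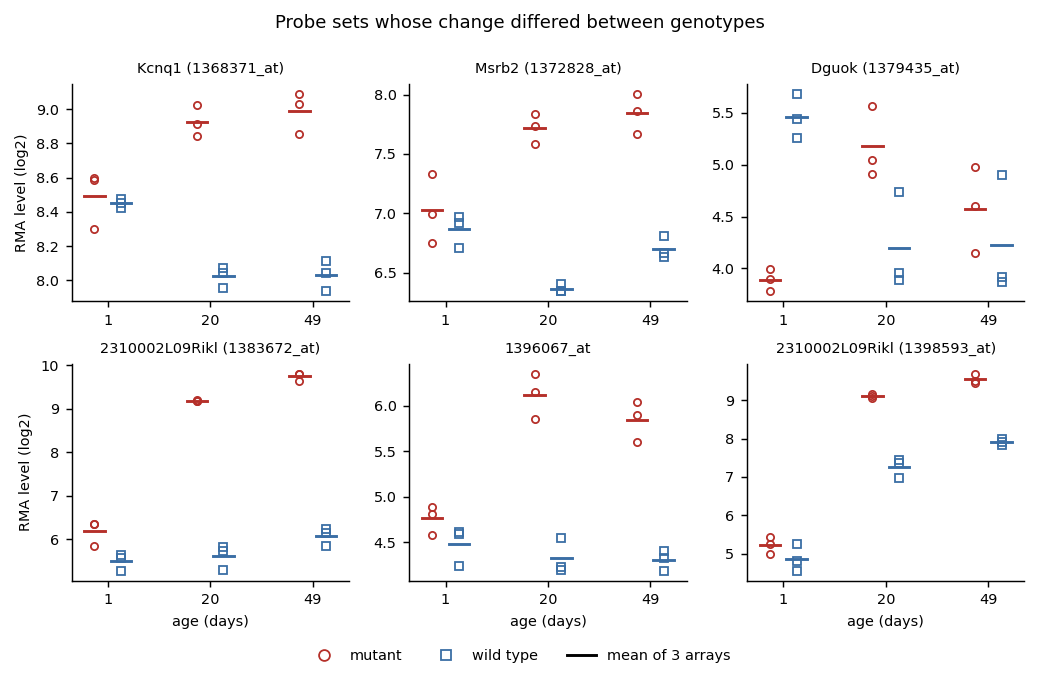
Log2 RMA level (vertical axis) by age in days (horizontal axis) on each array for the 6 probe sets with a called difference, with mutant arrays as red circles, wild-type arrays as blue squares and lines at the mean of 3 arrays. At day 20 the 3 mutant arrays lie above the 3 wild-type arrays in every panel.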

How the data were processed

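RNA was read on Affymetrix Rat 230 2.0 arrays. Per the series design text, the authors processed the scans by RMA, and deposited log2 values, 1 for each probe set and array. No version of RMA is given in those notes. The values were taken unchanged, without the 57 control probe sets. Of 31042 probe sets, 20826 had 1 gene symbol, 436 several (not named) and 9780 none listed. Limma 3.58.1 in R 4.3.3 fitted 6 groups over 18 arrays, with two-sided moderated tests and Benjamini-Hochberg adjustment. On simulated data, with independent noise and far fewer changed probe sets than were called here, 92.5% of 2-fold mutant changes were recovered. Errors are standard errors of the model unless named SD.

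Of 919 listed genes 828 were measured, 2 through another symbol, each by its brightest probe set. Named genes were the 10 largest rises and falls, all differences between the genotypes' steps, up to 4 called members per list, other list members beside their list's count, and Rbm20, Ttn, Myh6, Myh7, Tnni1, Tnni3, Nppa, Nppb, Acta1, Atp2a2, Mki67, Igf2 and Ppargc1a. The 10 largest rises and falls were taken among called probe sets whose day-1 and day-20 levels did not overlap. The members and lists were chosen with earlier results of these data known. Promoters came from the mouse table of RefSeq. Alternatives were other scalings, a filter on dim probe sets, the brightest probe set only, a 2-fold minimum, other fits, a replicate block, and arrays left out. Replicate numbers did not pair the mutant animals: deviations of same-numbered arrays correlated at 0.18, -0.20 and 0.07. Those of the wild type correlated at 0.10, 0.19 and 0.13, while those of different-numbered wild-type arrays reached 0.12. Neither these values nor the labels settle whether the wild-type animals were paired. The number of arrays limits the precision.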

Additional observations from a re-analysis of the deposited data

Results flagged for a closer look

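The change from day 1 to day 20 differed between mutant and wild type by a test of the difference itself for 6 probe sets. These were Kcnq1 (0.86), Msrb2 (1.19), Dguok (2.55), 2310002L09Rikl on 2 of its 3 probe sets (2.88 and 1.51, with -0.94 and no call on the third) and a probe set with no gene listed (1.51), all as the mutant's change minus the wild type's on the log2 scale. The difference of 2.88 was called whichever of the 12 arrays was left out. The calls of the others held in fewer of these 12 fits: 7 for the second 2310002L09Rikl probe set and 7 for the one with no gene listed, 6 for Msrb2, 4 for Dguok and 2 for Kcnq1, with adjusted p up to 0.0848, 0.0801, 0.0928, 0.0898 and 0.150 in that order. Their sizes stayed between 1.31 and 1.67, 1.40 and 1.65, 1.06 and 1.35, 2.35 and 2.82, and 0.76 and 0.91. Dguok was also apart at day 1, where the mutant stood lower by 1.57 (-1.57, adjusted p = 0.0267), and the other 5 probe sets were not called at that age. On the mutant arrays of day 49 Kcnq1 had a mean of 8.99 and Msrb2 of 7.85, against 8.03 and 6.70 on the wild-type arrays.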

How the results depend on the processing

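The mutant's 8764 calls became 5360 when only the brightest probe set of each gene was tested, a table with fewer members, and 1714 with a 2-fold minimum, and the wild type's 8737 became 5437 and 1671. Leaving out each array in turn gave 7108 to 8626 calls in the mutant and 6811 to 7849 in the wild type. Deviations of same-numbered arrays correlated at 0.10, 0.19 and 0.13 in the wild type, and of different-numbered arrays at -0.21 to 0.12. In the mutant they correlated at 0.18, -0.20 and 0.07, and at -0.26 to 0.20 for different numbers. With the replicate number as a block the mutant had 8861 calls and the wild type 8754. The 6 differences between genotypes became 3 with the brightest probe sets, 2 with only the arrays of the contrast, 5 with a 2-fold minimum, 28 without the arrays of uneven Gapdh ends, a setting chosen after seeing the data, and 1 to 20 over the arrays left out in turn. With the replicate block 5 higher and 1 lower difference were called, and Kcnq1 was not among them (adjusted p = 0.0883). The cause was not tested. The count was 20 without mutant day-1 replicate 3, 16 without mutant day-1 replicate 1, 14 without wild-type day-1 replicate 2, 4 without mutant day-1 replicate 2 or wild-type day-1 replicate 3, 3, 1 and 1 without mutant day-20 replicates 1, 2 and 3, 1 without wild-type day-1 replicate 1, and 2, 1 and 5 without wild-type day-20 replicates 1, 2 and 3. Without both mutant day-1 arrays of uneven Gapdh ends 1 array was left in that group and was assumed to vary like the others. Of 172 changes named by a fixed rule 152 kept their call in all alternatives run, and none of the 172 reversed. Other list members, named only beside their list's count, such as Esrrb and Nrf1, were not in this tally. Simulated differences between the steps were recovered in 74.6% at 2-fold and 11.9% at 0.5 on the log2 scale, so small differences could be missed at this number of animals. The simulation planted known differences in noise drawn independently for each probe set, and more were called there than on the real arrays. Its adjusted cutoff was therefore looser, and these shares are not the recovery to expect here. Ankrd23 and Ccn2 differed by more than 2-fold between the steps and were not called.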

Other observations

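Cholesterol synthesis fell in 6 of 18 measured genes and rose in 1, or 10 and 0 without the arrays of uneven Gapdh ends, with a median of -0.27. The riser was lost without mutant day-1 replicate 1 or 2 or mutant day-20 replicate 1 or 2, and 2 rose without mutant day-1 replicate 3. Sqle, the squalene epoxidase of that pathway, went from 7.41, 7.55 and 8.06 at day 1 to 4.59, 4.57 and 4.78 at day 20, a fall by 3.03 ± 0.16, and Idi1, the isopentenyl isomerase, fell by 1.73. Antioxidant genes rose in 10 of 27 and fell in 3. For this list and cholesterol synthesis, the shares over all genes were 13.7% rising and 21.9% falling. Sod3, the extracellular superoxide dismutase, rose by 1.69, Gstm2 by 1.17 and the mitochondrial peroxiredoxin Prdx5 by 1.09. Hmox1 was called lower by 1.22 (-1.22) and was not called without the arrays of uneven Gapdh ends (-0.73, adjusted p = 0.104).

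Among 4525 genes with several probe sets, 95 had probe sets called in opposite directions in the mutant's step, Pdlim5 among them, and 782 had more than 1 called, all in one direction. Npy, a neuropeptide of sympathetic nerves, had a day-20 array far from the others, with 9.85, 7.22 and 8.46 against 6.98, 7.07 and 7.11 at day 1, and its call was lost without mutant day-20 replicate 1 (0.79, adjusted p = 0.214), and also without mutant day-20 replicate 3 or any single mutant day-1 array, with adjusted p from 0.0542 to 0.0738.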
